A study of Mus musculus with 8 samples.

Results

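The 7 genes described here, grouped as Hes and Hey Notch effectors, are Hes1, Hes5, Hes6, Hey1, Hey2, Heyl and Nrarp. Nrarp is a feedback inhibitor of the pathway. The 7 were taken by symbol from the Ensembl gene identifiers of the deposited mRNA table, where each matched 1 of 29639 genes. RNA came from whole mouse embryos at embryonic day 12.5, per the series' design text, in 4 genotypes. In 3 of them, 3 polyadenylation cassettes, which end transcripts early, had been inserted by Easi-CRISPR into the promoter of Gtl2, the first maternally transcribed non-coding RNA gene of the imprinted Dlk1-Dio3 domain. PKI embryos had the insertion on the paternal copy, MKI embryos on the maternal copy and HOMO embryos on both copies, and wild-type embryos (WT) had none. The sources used here do not state strain, sex or the number of embryos behind a library.

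The labels name 8 samples, 2 per genotype, but the mRNA table holds 1 column per genotype. No spread between replicates can therefore be computed, no difference below has a test, and 2-fold is used only as a size to name. The titles give a slightly later day for PKI, MKI and HOMO than for WT and a different one for each, so age by title and genotype cannot be told apart. The 4 listed Y-linked genes lay between 7.12 and 29.7 FPKM in the knock-in columns and were listed at 0 in WT, so sex and genotype cannot be told apart between those columns and WT either.

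Notch is a receptor cut at the membrane when it meets a ligand on a neighbouring cell. Its freed inner part joins the DNA-binding protein Rbpj and switches on a small set of genes. Several Hes and Hey genes are the best known of these. Whether Notch switches on Hes6 was not tested. Most Hes and Hey proteins are basic helix-loop-helix repressors that hold back differentiation, in the neural tube by repressing proneural genes, in arteries and heart through the Hey members. Hes6 is an exception, as it is known to counteract Hes1 and to favour neuronal differentiation.

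Rbpj is known to bind DNA through the letters GTGGGAA, on either strand, which were searched for in the stretches before the transcription start. RefSeq promoter windows (GRCm38.p6) were at hand for 4 of the 7 genes, Hes5, Hes6, Hey2 and Nrarp. The 250 bases before the start are printed for each, 5′ to 3′ on the gene's strand. Capitals mark GTGGGAA or its reverse complement TTCCCAC in Hes5 and Hey2, the palindrome CACGTG (an E box) in Nrarp, and TATAAA in Hes6. They lie at chr4:154960673-154960922 (plus strand) for Hes5, chr10:30842784-30843033 (minus strand) for Hey2, chr1:91413223-91413472 (minus strand) for the downstream of 2 Hes6 starts, and chr2:25180508-25180757 (plus strand) for Nrarp.
Hes5: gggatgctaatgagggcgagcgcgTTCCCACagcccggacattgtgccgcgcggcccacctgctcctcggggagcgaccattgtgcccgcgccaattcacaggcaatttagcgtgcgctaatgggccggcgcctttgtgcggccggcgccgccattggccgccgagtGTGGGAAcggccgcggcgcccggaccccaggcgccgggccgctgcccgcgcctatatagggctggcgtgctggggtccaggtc
Hey2: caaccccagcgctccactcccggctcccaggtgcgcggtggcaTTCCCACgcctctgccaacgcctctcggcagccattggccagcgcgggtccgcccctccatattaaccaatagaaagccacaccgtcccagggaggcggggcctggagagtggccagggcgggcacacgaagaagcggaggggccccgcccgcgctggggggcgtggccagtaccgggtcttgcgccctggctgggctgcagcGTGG
Hes6: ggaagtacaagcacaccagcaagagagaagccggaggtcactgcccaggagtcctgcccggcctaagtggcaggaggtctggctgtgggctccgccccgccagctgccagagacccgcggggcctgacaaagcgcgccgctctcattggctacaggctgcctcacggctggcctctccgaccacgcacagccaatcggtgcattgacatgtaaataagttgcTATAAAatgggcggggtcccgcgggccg
Nrarp: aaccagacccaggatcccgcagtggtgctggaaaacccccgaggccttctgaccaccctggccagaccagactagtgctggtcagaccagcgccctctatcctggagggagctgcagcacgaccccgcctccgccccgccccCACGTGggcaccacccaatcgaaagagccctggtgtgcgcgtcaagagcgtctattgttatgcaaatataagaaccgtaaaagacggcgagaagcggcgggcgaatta

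GTGGGAA was searched on both strands in windows of 300 bases, which include 50 bases after the start. Hes5 held 2 matches, beginning 226 and 83 bases before the start. The Hes5 start used, 154960923, lies inside the RefSeq gene span, which begins at 154960626, and so do both matches. Hey2 also held 2, beginning 207 and 4 bases before it. The one nearer to the start runs across it, so that only its first 4 letters are printed. No match lay in the Nrarp window or in either Hes6 window. Of 32851 mouse windows of this length, 6.38% held at least 1 match and 0.256% at least 2. CACGTG, on which both strands read alike, was found in 7.15% of windows, TATAAA on either strand in 13.6%, and CACNAG, the N box known from Hes proteins, on either strand in 42.5%. CACNAG was matched in neither the Hes5 nor the Hey2 window, while the Nrarp window and the downstream Hes6 window each held 2. No matches of different motifs overlapped in these windows. These are matches of letters, not measured binding sites.

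All 7 genes passed the expression filter of at least 1 FPKM (fragment counts scaled to transcript length and library size) in at least 2 columns. Hes5 and Hes6 were far lower in MKI than in any other column, while the other 5 genes held between 47.9% and 158% of WT there. Hes5, the effector of neural progenitors, stood at 15.2 FPKM in PKI, 2.99 in MKI, 17.7 in HOMO and 21.9 in WT. MKI thus held 13.7% of the WT level of Hes5, whereas PKI held 69.2% and HOMO 81.0%. Hes6, which is known to counteract Hes1 and to favour neuronal differentiation, stood at 21.9 FPKM in PKI, 6.16 in MKI, 28.7 in HOMO and 31.7 in WT. Its MKI level was 19.4% of WT, and its PKI and HOMO levels were 69.2% and 90.6% of WT.

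Hes1, the most widely used Notch target, varied less. Its level was 15.3 FPKM in PKI, 9.84 in MKI, 13.3 in HOMO and 13.2 in WT, so HOMO was at 100.3% of WT and MKI was the lowest column. Nrarp, an ankyrin repeat protein that binds the Notch and Rbpj complex and dampens it, stood at 11.2 FPKM in PKI, 8.39 in MKI, 13.0 in HOMO and 11.0 in WT. For both genes the highest column exceeded the lowest by 1.55-fold.

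The Hey genes differed among themselves. Hey1, used in arteries and heart, was the steadiest of the 7, at 7.77 FPKM in PKI, 8.88 in MKI, 8.63 in HOMO and 9.13 in WT, a 1.18-fold range. Hey2, which marks ventricular heart muscle and arteries, was highest in MKI, with 5.04 FPKM in PKI, 5.88 in MKI, 3.59 in HOMO and 3.72 in WT. Heyl, expressed in vascular smooth muscle and muscle progenitors, was lowest in MKI, at 3.02 FPKM in PKI, 1.903 in MKI, 3.82 in HOMO and 3.97 in WT. Hey2 and Heyl thus went opposite ways in MKI, while HOMO was at 96.5% of WT for Hey2 and 96.1% for Heyl.

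**Figure D1:**
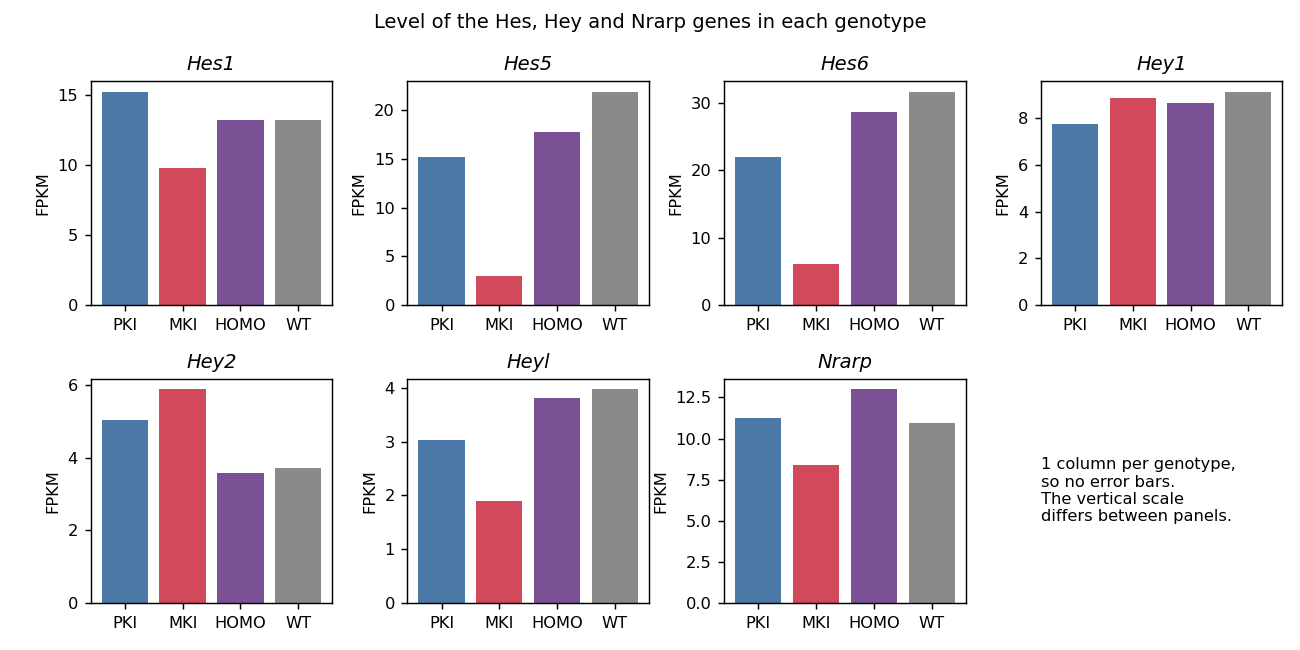
FPKM of each gene in PKI, MKI, HOMO and WT, 1 bar per column of the deposited table and no error bars, since each genotype has 1 column. The MKI bar is far below the others for Hes5 (2.99 FPKM) and Hes6 (6.16 FPKM), is the tallest for Hey2 (5.88 FPKM) and is close to WT for Hey1 (8.88 FPKM in MKI, 9.13 FPKM in WT).

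The order of the levels differed in MKI. FPKM is scaled by transcript length, so levels can be set side by side between genes. This scaling does not remove the shift of MKI with gene span that is described below. In WT the order was Hes6, Hes5, Hes1, Nrarp, Hey1, Heyl and Hey2. HOMO had the same order, and in PKI Hes1 was slightly above Hes5 and Hey2 above Heyl. In MKI the order was Hes1, Hey1, Nrarp, Hes6, Hey2, Hes5 and Heyl. Without replicates it is unknown which neighbours differ beyond their spread. Hes1 and Hes5 in PKI (15.3 and 15.2 FPKM) and Hes6 and Hey2 in MKI (6.16 and 5.88 FPKM) lay close together.

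Ratios within a column do not depend on any factor common to that column. A shift that follows gene span, as in MKI below, is not common and stays in ratios or shares between genes of unlike span. Hes5 was 0.993 times Hes1 in PKI, 0.304 times in MKI, 1.34 times in HOMO and 1.65 times in WT. Hes6 was 1.44 times Hes1 in PKI, 0.626 times in MKI, 2.16 times in HOMO and 2.39 times in WT. Hes1 therefore exceeded Hes6 in MKI, in no other column. Hes5 and Hes6 together supplied 46.7% of the summed FPKM of the 7 genes in PKI, 20.8% in MKI, 52.3% in HOMO and 56.6% in WT. The 3 Hey genes summed to between 15.8 and 16.8 FPKM in all 4 columns, so that their share was 19.9% in PKI, 37.8% in MKI, 18.1% in HOMO and 17.8% in WT.

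Each knock-in was then set against WT on the log2(FPKM + 0.5) scale, which slightly understates differences of low genes. In PKI, where the copy that is normally silent for Gtl2 carries the insertion, none of the 7 genes reached 2-fold, as against 2.15% of 13279 tested genes. Hes5 and Hes6 both differed by -0.52, Heyl by -0.34 and Hey1 by -0.22, while Hey2 was 0.39, Hes1 0.20 and Nrarp 0.03 above WT. The median of the 7 was -0.22 and that of all tested genes -0.07. Of all tested genes 59.5% were below WT in PKI and 61.5% in HOMO. Neuronal markers were below WT for 12 of 12 genes in PKI (11 of 12 under TMM scaling, by trimmed means of log ratios) and for 12 of 12 in HOMO, with medians of -0.70 in PKI and -0.27 in HOMO. Their summed level was 392 FPKM in PKI and 596 in WT. Of the neural progenitor markers 8 of 10 were below WT in PKI, and Sox2 was more than 2-fold lower, at 3.21 FPKM in PKI and 9.51 in WT. Vim and Fabp7, the 2 highest of that list, summed to 441 FPKM in PKI and 417 in WT, and the other 8 to 105 FPKM in PKI and 139 in WT. The part of these cell types in the PKI values of Hes5 and Hes6 was not tested, and in whole embryos fewer cells of a type and less RNA per cell cannot be told apart.

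In MKI, where the transcribed maternal copy carries the insertion, 2 of the 7 genes were more than 2-fold away from WT on this scale, both lower. Of all tested genes 20.3% were that far away and 19.1% were lower. The count of 2 is close to what the whole column shows. The size differed more than the count. Hes5 differed by -2.68, and 80 of the other tested genes were as low or lower, while Hes6 differed by -2.27 with 196 genes as low or lower. Heyl (-0.90), Hes1 (-0.41), Nrarp (-0.37) and Hey1 (-0.04) were nearer to WT, and Hey2 was 0.60 above it. Without the added 0.5 Heyl was also past 2-fold, as WT exceeded MKI 2.09-fold in FPKM. The 7 genes spread over 3.28 log2 units with a median of -0.41, against -0.11 for all tested genes. After quantile normalization the median of the 7 was -0.20 and that of all tested genes 0.14, with Hes5 at -2.39, Hes6 at -2.05, Heyl at -0.45, Hes1 at -0.20, Nrarp at -0.12 and Hey2 at 0.96. Hey1 lay above WT at 0.21 after quantile normalization and 0.10 after TMM scaling.

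In HOMO, which carries the insertion on both copies, none of the 7 genes reached 2-fold, beside 1.45% of all tested genes. Hes5 differed by -0.30, Hes6 by -0.14, Hey1 by -0.08 and both Hey2 and Heyl by -0.05 (both above 0 under quantile normalization and TMM), while Hes1 was at 0.00 and Nrarp at 0.23. The median of the 7 was -0.05, beside -0.06 for all tested genes, and it changed sign to 0.03 under quantile normalization and 0.01 under TMM. Hes5 remained the member farthest below WT, as it was in MKI.

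**Figure D2:**
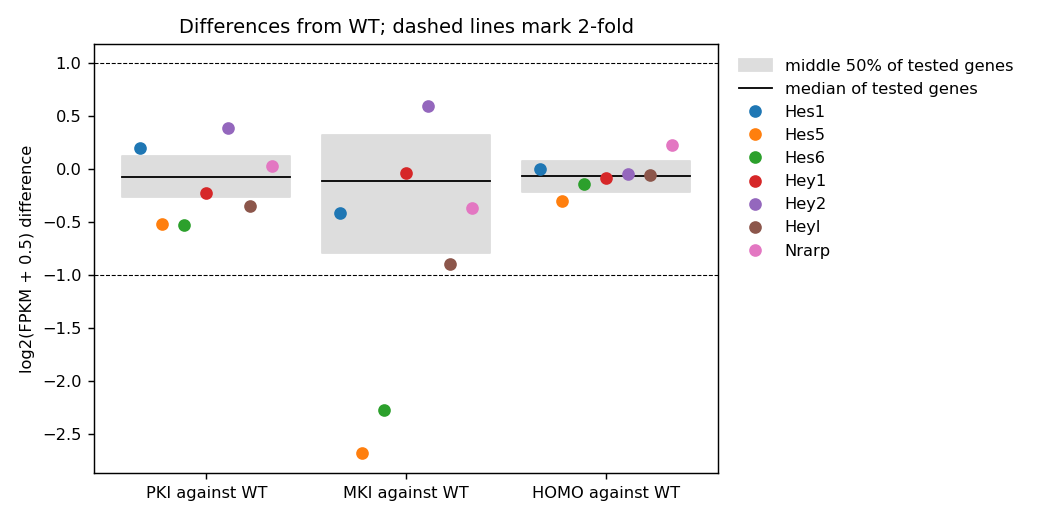
log2(FPKM + 0.5) difference of each gene from WT in PKI, MKI and HOMO, 1 point per gene, with the middle 50% of the 13279 tested genes as a grey band, their median as a line and 2-fold as dashed lines. Hes5 (-2.68) and Hes6 (-2.27) lie below the dashed line in MKI, and no gene passes it in PKI or HOMO.

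The MKI column stood apart across the whole table, and its difference from WT followed gene length. Pearson's r with the other columns, across 13279 genes that are not independent replicates, was 0.864 to 0.882 for MKI and 0.961 to 0.975 among PKI, HOMO and WT. Spearman's rho between the difference from WT and the RefSeq gene span across 12333 genes was -0.279 for PKI, 0.342 for MKI and -0.154 for HOMO. When these genes were put into 10 equal groups by span, the group of up to 4.64 kb had a median of -0.75 in MKI and the group of the longest genes had a median of 0.13. In the shortest group 39.2% of genes were 2-fold lower in MKI, and in the longest 3.57%. Hes1, Hes5, Hes6, Hey1 and Nrarp, with spans of 1.75 to 3.68 kb, all belong to the shortest group, Hey2 spans 10.4 kb and Heyl 16.3 kb.

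Centring each gene on the median of its span group, a step chosen after the data were seen, changed the picture for 4 of the genes. In MKI against WT, Hes5 stayed low at -1.93 and Hes6 at -1.52, and Heyl was at -0.56. Hes1, Nrarp and Hey1 came to lie above the genes of their own length, at 0.34, 0.39 and 0.72, and Hey2 at 1.04 passed 2-fold. Whether span or something that goes with it sets the MKI values was not tested.

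**Figure D3:**
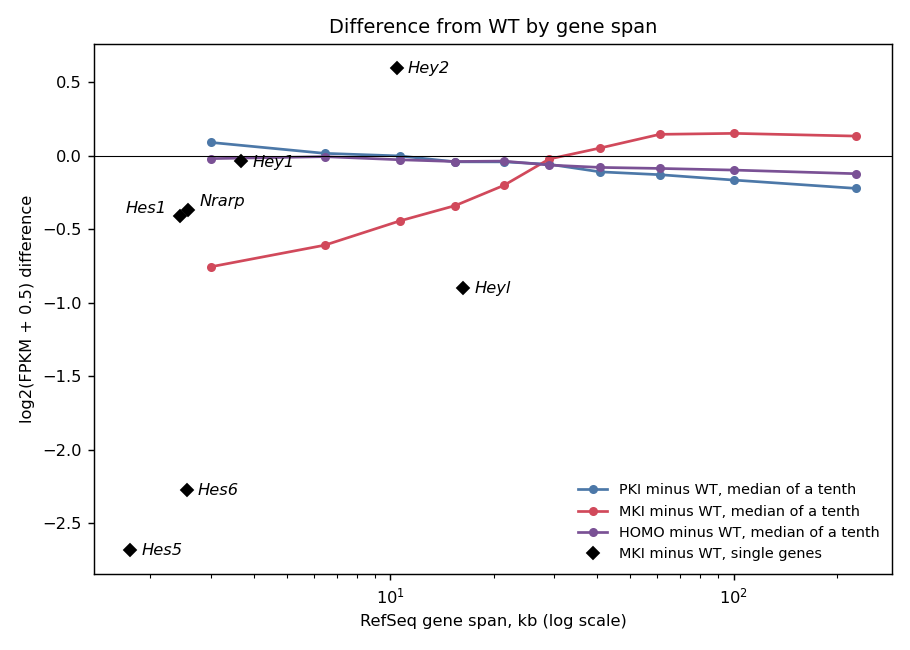
log2(FPKM + 0.5) difference from WT against RefSeq gene span (log axis, kb). Lines join the medians of 10 equal groups of genes for PKI, MKI and HOMO, and diamonds are the 7 genes in MKI. The MKI line climbs with span, starting at -0.75, and Hes5 and Hes6 lie well below it while Hey2 lies above it.

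Columns with and without the maternal insertion can be compared in both paternal backgrounds, as MKI against WT and as HOMO against PKI, which share no column. Both pairs also differ in age by title. The listed Y-linked genes were at 0 in WT only, so sex and genotype cannot be told apart in the first pair. No member was 2-fold away in HOMO against PKI, where 2.87% of all tested genes were. Hes5 stood at 17.7 FPKM in HOMO and 15.2 in PKI, a difference of 0.22, and Hes6 at 28.7 FPKM in HOMO and 21.9 in PKI, a difference of 0.38. The low level of these 2 genes in MKI was thus absent from HOMO, although both carry the insertion on the maternal copy. Heyl (0.29), Nrarp (0.20) and Hey1 (0.14) were also higher in HOMO than PKI, and Hey2 (-0.44) and Hes1 (-0.19) were lower. Only Hes1 had the same sign in both pairs and 6 of 7 had opposite signs, or 5 of 7 under quantile normalization or TMM, where Hey1 was above 0 in both. Of all tested genes 62.1% had opposite signs.

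**Figure D4:**
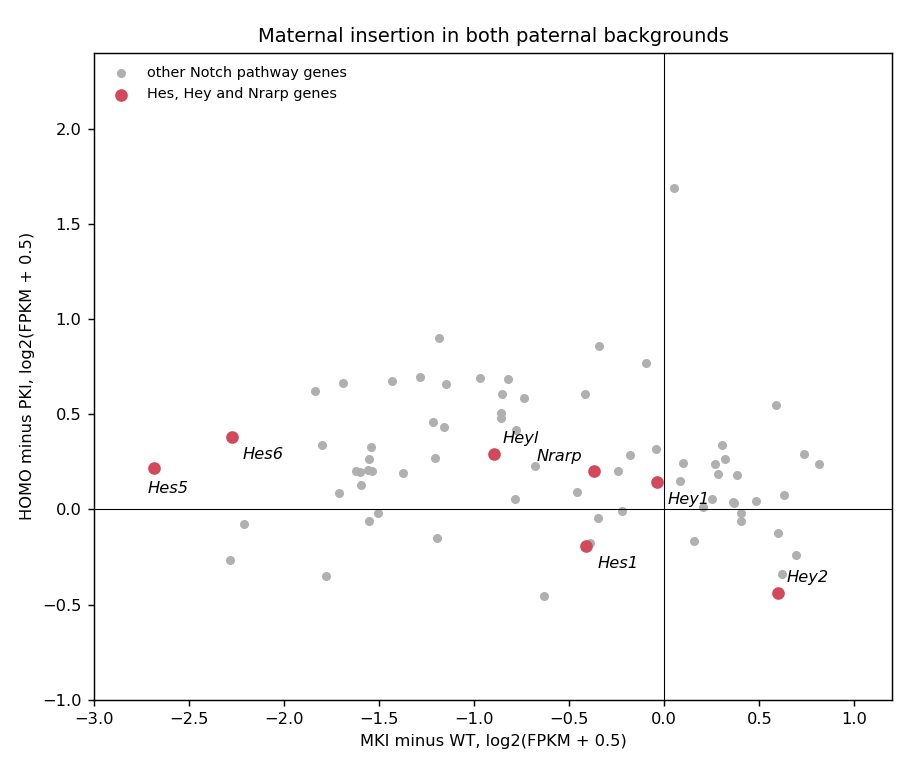
HOMO minus PKI against MKI minus WT on the log2(FPKM + 0.5) scale, for the 7 genes (red) and 68 other listed genes (grey). The legend calls all 68 Notch pathway genes, but they include the proneural, Id, other Hes-type and segmentation clock genes given below. Hes5 and Hes6 lie far to the left at -2.68 and -2.27 but slightly above 0 on the vertical axis, and Hey2 lies to the lower right.

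Direct comparisons with MKI repeat its low values and share that column. HOMO exceeded MKI 5.93-fold in FPKM for Hes5 and 4.66-fold for Hes6. On the log2(FPKM + 0.5) scale, at 2.39 and 2.13, these were the 2 members past 2-fold, beside 23.3% of all tested genes. Heyl was 2.01-fold higher in HOMO than MKI in FPKM but at 0.84 on that scale. Against PKI, MKI differed by -2.17 for Hes5 and -1.75 for Hes6, again 2 of 7, beside 19.1%. Centred by span the Hes6 value was -0.96, below 2-fold.

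Receptors and ligands, which act before the effectors, were lower in MKI as well. All 4 Notch receptor genes lay below WT in MKI and 2 were more than 2-fold lower. Among all tested genes 55.4% lay below WT in MKI, and 19.1% were 2-fold lower (10.9% under quantile normalization). Notch3 stood at 16.9 FPKM in PKI, 7.06 in MKI, 26.4 in HOMO and 26.5 in WT, and Notch1 at 14.6 in PKI, 9.78 in MKI, 24.0 in HOMO and 24.5 in WT. All 5 ligand genes were below WT in MKI, 3 of them more than 2-fold (2 under quantile normalization), with a median of -1.21 (-0.63 under quantile normalization). Among them Dll3, a ligand-like protein that inhibits Notch within the cell, stood at 4.07 FPKM in PKI, 1.54 in MKI, 6.75 in HOMO and 6.07 in WT. Jag2 was at 4.40 FPKM in PKI, 1.04 in MKI, 4.20 in HOMO and 4.01 in WT. In HOMO none of the 9 reached 2-fold, beside 1.45% of all tested genes. In PKI 8 of 9 were below WT, beside 59.5% of all tested genes, and none reached 2-fold, beside 2.15%.

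Enzymes and nuclear partners were split. The share of all tested genes 2-fold lower in MKI was 19.1%, and 10.9% under quantile normalization. Of 17 genes for processing of ligands and receptors, 12 were below WT in MKI and 5 above it, beside 55.4% of all tested genes below. More than 2-fold lower in MKI were 8 (6 under quantile normalization). Among them was Neurl1a (0.238 FPKM in MKI and 2.91 in WT), a ubiquitin ligase of Notch ligands. Furin, which cuts the receptor on its way to the membrane, was at 3.37 FPKM in MKI and 11.4 in WT, and Aph1a, a γ-secretase subunit, at 7.49 in MKI and 23.0 in WT. Of 13 genes of the nuclear complex, 5 were below WT in MKI, and the median of the list was 0.20. Rbpj itself, named here after its value was seen, was at 7.64 FPKM in PKI, 20.9 in MKI, 9.46 in HOMO and 12.4 in WT, so it was highest in the column where Hes5 was lowest. The Tle family includes co-repressors that Hes proteins recruit. Of its 6 tested genes, 3 were more than 2-fold lower in MKI. They were Tle3 (8.87 FPKM in MKI and 30.2 in WT), Tle2 (1.44 in MKI and 4.73 in WT) and Aes (35.5 in MKI and 81.8 in WT). Recruitment by Hes proteins is not implied for every gene of this list, Aes among them.

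Among antagonists and ubiquitin ligases of Notch, 5 of 10 were more than 2-fold lower in MKI (4 under quantile normalization). They included the Deltex genes Dtx1 (0.799 FPKM in MKI and 4.02 in WT) and Dtx2 (1.07 in MKI and 4.88 in WT), besides Dtx3 (log2 difference -1.60). Dlk1, the imprinted Notch ligand relative of the targeted domain, stood at 55.7 FPKM in PKI, 83.4 in MKI, 181 in HOMO and 80.5 in WT. With the proneural, Id, other Hes-type and segmentation clock genes given below, the lists held 68 tested genes besides the members. Only 2 of these 68 were 2-fold away from WT in HOMO. They were Dlk1 and the γ-secretase subunit gene Psenen (55.9 FPKM in HOMO and 23.4 in WT), which was chosen after its values were seen. Among all tested genes 1.45% were that far away there. In MKI 25 of the 68 were 2-fold lower and none higher, with a median of -0.66, beside 19.1% of all tested genes that were 2-fold lower there. Under quantile normalization 19 of the 68 were 2-fold lower, beside 10.9% of all tested genes, and the median was -0.31, beside 0.14. Centred by span 16 of 67 were lower and 3 higher, beside 12.0% of all genes lower. In PKI 1 of the 68 was 2-fold lower, the proneural gene Neurog1, beside 1.45% of all tested genes.

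Proneural genes, which Hes proteins are known to repress, did not show a common direction in MKI. Of 6 tested, 4 were below WT in MKI, 6 in PKI and 5 in HOMO, beside 55.4%, 59.5% and 61.5% of all tested genes. The medians were -0.34 in MKI, -0.77 in PKI and -0.27 in HOMO. Neurog1 stood at 1.50 FPKM in PKI, 1.48 in MKI, 3.24 in HOMO and 4.01 in WT. The Id genes, whose products block proneural proteins by another route, were split. Id3 was at 35.6 FPKM in PKI, 5.35 in MKI, 29.5 in HOMO and 28.0 in WT, and Id1 at 45.8 in PKI, 12.5 in MKI, 45.2 in HOMO and 36.4 in WT, whereas Id2 (0.26) and Id4 (0.81), given to complete the list, were above WT in MKI on the log2 scale. Of the 6 other Hes-type genes only Bhlhe40 passed the filter, at 1.13 FPKM in PKI, 1.27 in MKI, 1.43 in HOMO and 1.15 in WT. Of 11 genes of the segmentation clock, the oscillator that paces somite formation, 6 were below the filter, Hes7 among them. All 5 tested clock genes were below WT in MKI, Dll3 (above) and the glycosyltransferase gene Lfng (2.91 FPKM in MKI and 9.48 in WT) more than 2-fold. Dll1 and Dll3 were already counted among the ligands, and Lfng among the processing genes. The share of all tested genes 2-fold lower in MKI was 19.1%.

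Markers of the tissues that use these effectors were present in all columns, and no gene of the neural, endothelial, mural, heart or muscle lists was at 0. Among neural progenitor markers Vim and Fabp7 summed to 588 FPKM in MKI and 417 in WT, and the other 8 to 105 FPKM in MKI and 139 in WT. Of the 10, Msi1 (9.15 FPKM in MKI and 39.6 in WT) and Sox3 (1.35 in MKI and 3.83 in WT) were more than 2-fold lower in MKI, and 6 were above WT. The share of all tested genes 2-fold lower in MKI was 19.1%. In HOMO 1 of the 10 was 2-fold away, beside 1.45% of all tested genes. It was Sox2, at 0.734 FPKM in HOMO and 9.51 in WT. Neuronal markers in MKI lay on both sides, with Tubb3 at 41.4 FPKM in MKI and 183 in WT and Stmn3 at 16.5 in MKI and 45.7 in WT, while 5 of 12 were above WT. The list summed to 490 FPKM in MKI and 596 in WT, and without Tubb3 and Stmn2, its 2 highest genes, to 354 FPKM in MKI and 339 in WT.

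Endothelial and mural markers stand beside the Hey genes. The 12 endothelial markers had a median of -0.10 in MKI (0.10 under quantile normalization, 0.04 under TMM), with 4 more than 2-fold lower (2 under quantile normalization), and a sum of 71.8 FPKM in MKI and 88.7 in WT. Among all tested genes 19.1% were 2-fold lower in MKI, and 10.9% under quantile normalization. The 9 mural markers, of which 8 were tested, summed to 82.4 FPKM in MKI and 120 in WT. Acta2 and Pdgfrb, the 2 highest, summed to 57.5 FPKM in MKI and 88.4 in WT, and the other 7 to 24.9 in MKI and 32.0 in WT. The median in MKI was -0.29 (-0.17 under quantile normalization, -0.14 under TMM). Of the 8, 3 were above WT in MKI (4 under either scaling). Another 3 were more than 2-fold lower (1 under quantile normalization), including Pdgfrb (6.97 FPKM in MKI and 17.0 in WT). Heart markers summed to 132 FPKM in PKI, 78.4 in MKI, 83.0 in HOMO and 106 in WT. Myl2 and Myh7, the 2 highest, summed to 45.5 FPKM in PKI, 39.9 in MKI, 34.5 in HOMO and 39.9 in WT. The other 8 summed to 86.2 FPKM in PKI, 38.4 in MKI, 48.5 in HOMO and 66.0 in WT. Of the 9 tested, 3 were below WT in PKI and 7 in MKI, beside 59.5% and 55.4% of all tested genes. The medians were 0.20 in PKI and -0.55 in MKI (-0.28 under quantile normalization in MKI). Hey2 was higher than WT in both PKI and MKI. Other tissues in these whole embryos also moved. Hepatocyte markers had median log2 differences from WT of -1.39 for PKI, 0.05 for MKI and 0.17 for HOMO. Afp and Alb, the 2 highest of them, summed to 177 FPKM in PKI, 999 in MKI, 624 in HOMO and 497 in WT, and the other 5 to 50.2 FPKM in PKI, 158 in MKI, 190 in HOMO and 149.6 in WT. Erythroid markers had median log2 differences from WT of -1.21 for PKI, -0.99 for MKI and -0.02 for HOMO (0.02 under quantile normalization and 0.04 under TMM for HOMO). For epidermal markers the median was 1.00 for PKI, -0.20 for MKI and 0.01 for HOMO. For skeletal muscle markers it was -0.17 for PKI, -0.40 for MKI and -0.01 for HOMO (0.05 under either scaling for HOMO), and for cartilage and paraxial mesoderm markers -0.20 for PKI, -0.45 for MKI and -0.19 for HOMO. Quantile normalization moved these medians in MKI to -0.57 for erythroid, -0.03 for epidermal, -0.13 for skeletal muscle and -0.01 for cartilage and paraxial mesoderm markers. The part of cell composition in the Hes and Hey values was not tested.

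Genes with the most similar pattern were sought among 8706 named genes with a mean of at least 5 FPKM, by Euclidean distance over the 3 log2 differences from WT. Nearest to Hes5 were Lrrc4b (distance 0.11), at 2.00 FPKM in MKI and 15.5 in WT, and Nyap1 (0.16). Near Hes6 was Cbx6 (0.11). The other members had closer matches, Vps72 (0.016) and Hdac1 (0.031) for Hes1, Ino80c (0.031) and Usp54 (0.036) for Hey1, and Eif1a (0.023) for Hey2. For Heyl they were Pigt (0.050) and Tagln3 (0.057), and for Nrarp Bsg (0.029) and Dmap1 (0.035). With 3 differences per gene such matches are a description only.

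The microRNA miR-9, made in neural progenitors from 3 loci, is known to act on Hes1 mRNA in the mouse and is shown for that reason. Capitals mark the seed, bases 2 to 8, in the RefSeq mature sequence.
miR-9-5p: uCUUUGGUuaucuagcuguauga
miR-9-5p stood at 37132 rpm (reads scaled to a common total) in PKI, 42062 in MKI, 41432 in HOMO and 39090 in WT. All knock-in columns were thus between 95.0% and 108% of WT.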

How the data were processed

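Poly(A)-selected RNA of whole embryos was read as strand-marked paired ends, per the labels' protocols. The submitters' processing notes list StringTie 1.3.4d, HISAT2 2.0.4, cutadapt 1.9, DESeq2 and edgeR without roles, and the build GRCm38. The deposited mRNA values are read here as the authors' FPKM, since StringTie is the quantifier named and the values are not whole; the header gives no unit. The depth behind them is unknown. The deposited microRNA values are RPM by the authors, each column summing to 1000000; the lowest value above 0, taken as 1 read, was 0.0993 to 0.125 rpm. The sources used here do not say how those libraries were made, or whether a column is 1 library or a combination. The long non-coding table was not used here.

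Of 29639 mRNA genes 22022 matched a symbol, and entries sharing a symbol were summed. Of 29619 entries, 13279 had at least 1 FPKM in at least 2 columns. The design had allowed for limma with 2 libraries per group; with 1 column each, differences of log2(FPKM + 0.5) were described without a test. The members, lists and rules were chosen with earlier results of these data known. Named genes were the 7 members, up to 3 per list at least 2-fold from WT with 2 FPKM in the higher column (otherwise the highest member), and the 2 nearest patterns per member, of which some are not reported here; others are marked as chosen after seeing values or serve only in counts. Lists of tissues far from these effectors are given only by sums or medians.

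Alternatives were pseudocounts of 0.1 and 1, no filter, a filter of 5 FPKM, quantile normalization and TMM scaling, and, added after seeing the data, centring by span and leaving out MKI. Python 3.11.15, numpy 2.4.6 and pandas 2.3.3 were used, and the steps were tested on simulated data.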

Additional observations from a re-analysis of the deposited data

Results flagged for a closer look

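The maternal insertion went with opposite signs in the 2 paternal backgrounds for 6 of the 7 genes, and for 62.1% of all tested genes. Age by title differs in both pairs, and sex and genotype cannot be told apart in MKI against WT. Centred by span, 5 of the 7 had opposite signs, with Nrarp and Hey1 above 0 in both. Each value here is the log2 difference HOMO minus PKI less that of MKI minus WT, from 1 column per genotype, and none of these differences was tested. It was 2.90 for Hes5 and 2.65 for Hes6, where MKI was below WT and HOMO above PKI. It was 1.19 for Heyl, 0.57 for Nrarp and 0.18 for Hey1, with the same pair of signs on the deposited scale, although Hey1 in MKI lay above WT under quantile normalization and TMM. For Hey2 it was -1.04, since Hey2 was higher in MKI than WT and lower in HOMO than PKI. The MKI column also stood apart from the other 3 across the table, and leaving it out removes the comparison.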

How the results depend on the processing

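No paired analysis was possible because each genotype has 1 column without a replicate number; for the same reason leaving out replicates was not run. The count of members past 2-fold was 1 in MKI against PKI when centred by span (2 as reported), and 3 in MKI against WT (pseudocount of 0.1, or centred by span) and in HOMO against MKI (centred by span; 2 as reported in both); under the other alternatives run it was the same in each of the 6 comparisons. The median of the members changed sign when centred by span in MKI against WT (0.34), HOMO against MKI (-0.17) and MKI against PKI (0.18), and in HOMO against WT under quantile normalization (0.032) and TMM (0.0091); the cause was not tested. Of 309 values of single members under alternatives, 291 kept their sign and their side of 2-fold, among them those under other filters and without the MKI column, which such steps cannot move. In MKI against WT, Hes5 ranged from -2.83 to -1.93 and Hes6 from -2.34 to -1.52. A pseudocount of 0.1 put Heyl past 2-fold in MKI against WT (-1.02), and centring by span put Hey2 past it in HOMO against MKI (-1.11). Quantile normalization moved the median of all genes by 0.25 in MKI against WT, TMM by 0.14.

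Counts of all genes past 2-fold ranged from 127 to 466 in PKI against WT (286 as reported), 1831 to 3158 in MKI against WT (2694 as reported), 75 to 345 in HOMO against WT (193 as reported), 184 to 557 in HOMO against PKI (381 as reported), 2128 to 3660 in HOMO against MKI (3099 as reported), 1766 to 3033 in MKI against PKI (2537 as reported). Under quantile normalization the share higher among them was 49.6% in PKI against WT (32.5% on the deposited scale), 30.6% in MKI (6.01%) and 56.5% in HOMO (46.1%), 61.4% in HOMO against MKI (84.4%) and 33.8% in MKI against PKI (13.4%). In HOMO against PKI it was 67.9% when centred by span (54.1%). Leaving out the MKI column can change only which genes pass the filter, so the members' values in the remaining comparisons are the same by construction.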
